A study of Homo sapiens with 4 samples.

Results

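The plasminogen activators, the urokinase receptor and a set of serpins were followed in MDA-MB-231 cells depleted of the receptor tyrosine kinase AXL. The 6 genes, PLAU, PLAT, PLAUR, SERPINE2, SERPINB2 and SERPINB8, were chosen by symbol from a table of 63677 genes. Each symbol stood on 1 row of the table. MDA-MB-231 is an established, mesenchymal-like human line of triple-negative breast cancer (TNBC). The cells received either a control siRNA, in the group siCt, or an siRNA pool that targets AXL, in the group siAxl, by transfection, and total RNA was sequenced from 2 libraries of each. No time after transfection is given in the labels, and nothing in them says that the libraries came from separate cultures. P-values then measure only the spread between these libraries, which may be technical.

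Plasminogen is a circulating proenzyme that is cut to plasmin, a broad protease of fibrin and matrix. The cut is made by urokinase (uPA, encoded by PLAU) and by tissue-type plasminogen activator (tPA, encoded by PLAT). Urokinase is secreted as an inactive single chain and acts mostly while bound to its GPI-anchored receptor uPAR (PLAUR). Serpins trap the activators in covalent complexes that are then taken up by endocytic receptors. The system is known in breast cancer for its part in invasion and for its use as a prognostic marker.

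The deposited values are normalized counts, that is, reads per gene divided by a size factor of the library. The reads behind them summed to between 39574387 and 44585773 per library, and siCt 2 was the shallowest. AXL, the targeted gene, had 29189 and 30617 normalized counts in siCt 1 and siCt 2 against 8658 and 7141 in siAxl 1 and siAxl 2, a log2 difference of -1.93 (standard error 0.0918, limma adjusted p = 0.000585). VIM and CD44, markers of this mesenchymal-like line, were at or above 33968 normalized counts in every library, whereas ESR1 and PGR were at most 3.25. Of the other markers expected to be low, CDH1 was at 22.6 to 94.3 and fell in siAxl (log2 difference -1.64, limma adjusted p = 0.00847), but EPCAM, at 565 to 771, and ERBB2, at 2949 to 3680, were not near 0. ERBB2 rose (log2 difference 0.26, limma adjusted p = 0.0258), and EPCAM was at 0.32 (limma adjusted p = 0.0513) with both siAxl libraries above siCt. The immune marker PTPRC was at most 16.7, and CD3E, PECAM1 and CDH5 were at most 1.08.

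To compare the groups, limma was fitted on log2(normalized count + 1), a scale on which the change of low genes is understated. It was fitted over 16064 genes that passed a filter on low counts, and all 6 genes passed it. Genes were called where the p adjusted by Benjamini and Hochberg over all genes tested was under 0.05. By this test 3 of the 6 genes rose in siAxl, namely SERPINE2, PLAT and SERPINB8, and 0 fell. The count of 0 that fell held at an unadjusted p under 0.05 and with edgeR and DESeq2. Among all genes tested 10.8% were called higher and 7.91% lower. In 5 of the 6 genes both siAxl libraries lay above both siCt libraries, an arrangement seen in 30.6% of all genes tested. The median log2 difference of the 6 was 0.28, beside -0.0022 over all genes tested. Because the 6 genes were chosen with earlier results of these data known, these comparisons are a description only. As these are bulk samples, more cells that express a gene and more RNA per cell cannot be told apart.

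**Figure D1:**
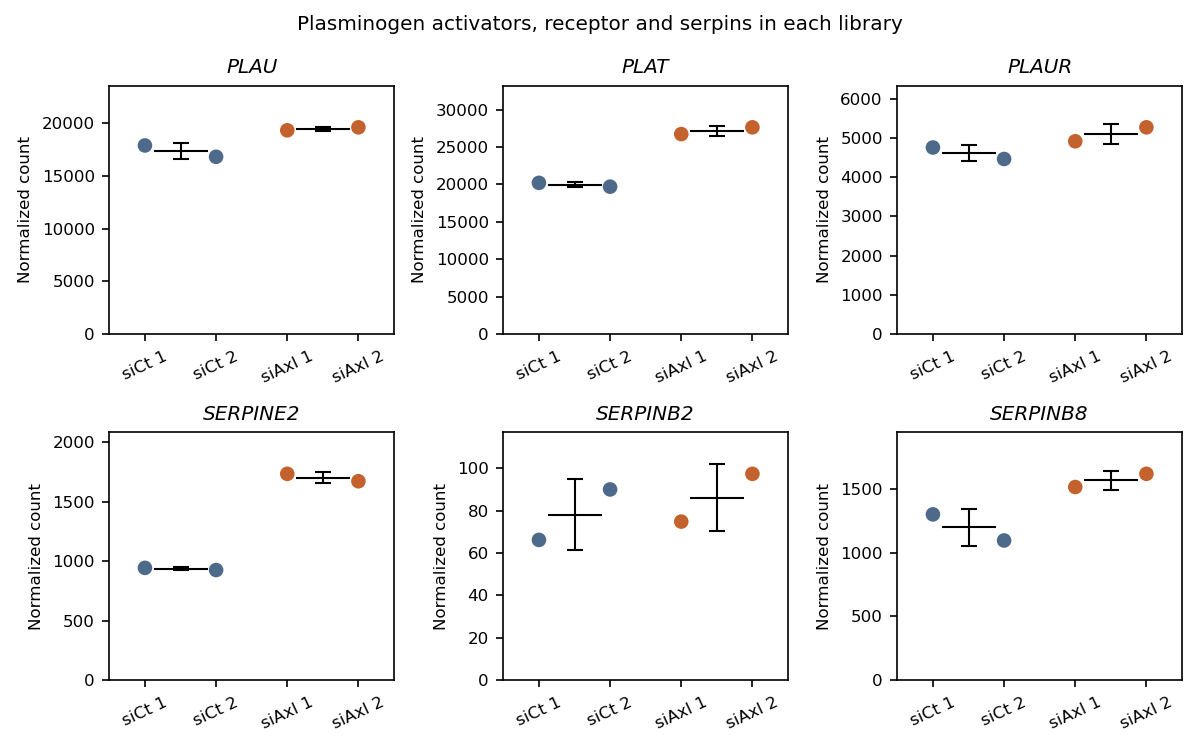
Normalized counts of the 6 genes in each library (points), with the mean and SD of each group of 2 libraries (horizontal and vertical bars), each axis starting at 0. The siAxl points lie above both siCt points for every gene but SERPINB2, whose groups overlap between 74.8 and 89.9.

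The activators were the most abundant of the 6 transcripts. PLAU (ENSG00000122861) had 17893 and 16818 normalized counts in siCt 1 and siCt 2, and 19332 and 19615 in siAxl 1 and siAxl 2. Both siAxl libraries were above both siCt libraries, and the gap was small beside the level. In siCt the mean was 17356 ± 760 (SD, n = 2), and siAxl had a mean of 19474 ± 200 (SD, n = 2). The log2 difference of 0.17 (standard error 0.0575, limma adjusted p = 0.0867) did not pass the test. As a fold it was 1.12, with a 95% interval for the single gene of 1.02 to 1.23.

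PLAT (ENSG00000104368), which encodes the activator best known for dissolving fibrin clots, had 20200 and 19689 normalized counts in siCt 1 and siCt 2. It had 26717 in siAxl 1 and 27622 in siAxl 2. The groups were far apart beside the spread within each, at 19944 ± 362 (SD, n = 2) against 27169 ± 640 (SD, n = 2). PLAT was 1.36-fold higher in siAxl (95% interval 1.24 to 1.49), a log2 difference of 0.45 (standard error 0.0553, limma adjusted p = 0.0039). With each library left out in turn the log2 difference lay between 0.42 and 0.47 and the call was kept each time.

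PLAUR (ENSG00000011422), the receptor that holds urokinase at the cell surface, had 4756 and 4463 normalized counts in siCt 1 and siCt 2. In siAxl 1 it had 4914 and in siAxl 2 5271. The siAxl libraries again stood above both siCt libraries, but siAxl 1 lay closer to siCt 1 than to siAxl 2. The means were 4610 ± 207 (SD, n = 2) and 5093 ± 252 (SD, n = 2), and the log2 difference was 0.14 (standard error 0.0632, limma adjusted p = 0.160). The interval of the fold, 0.996 to 1.22 around 1.10, includes no difference and also a rise of about the size seen for PLAU.

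SERPINE2 (ENSG00000135919) encodes protease nexin-1, a secreted serpin that inhibits thrombin, urokinase and tPA. It had 945 and 926 normalized counts in siCt 1 and siCt 2 and 1734 and 1671 in siAxl 1 and siAxl 2. Libraries of the same group were close to each other and the groups were well apart, at 935 ± 12.8 (SD, n = 2) and 1703 ± 44.0 (SD, n = 2). The gene was 1.82-fold higher in siAxl (95% interval 1.63 to 2.02), with a log2 difference of 0.86 (standard error 0.0653, limma adjusted p = 0.00136). This was the largest difference of the 6 genes, and 98.2% of all genes tested had a lower log2 difference. Leaving out each library in turn gave 0.84 to 0.89, and the call was kept each time.

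SERPINB8 (ENSG00000166401), an intracellular serpin known as an inhibitor of furin, had 1298 and 1094 normalized counts in siCt 1 and siCt 2. It had 1512 in siAxl 1 and 1615 in siAxl 2. Both siAxl libraries were above both siCt libraries, with a wide spread in siCt, as the means of 1196 ± 144 (SD, n = 2) and 1564 ± 73.0 (SD, n = 2) show. It was 1.31-fold higher in siAxl (95% interval 1.12 to 1.53), and its log2 difference was 0.39 (standard error 0.0937, limma adjusted p = 0.0304). The call was lost without siCt 2 (0.27, adjusted p = 0.0541), without siAxl 1 (0.44, adjusted p = 0.0506) and without siAxl 2 (0.34, adjusted p = 0.103). It was also lost when every gene with a read was tested (adjusted p = 0.104). Over the alternatives fitted on all 4 libraries the adjusted p ranged from 3.78e-07 to 0.104. The lowest came from the limma fit that blocks on replicate number, although no label says that these numbers pair the libraries. The adjusted p was 0.0318 with edgeR's quasi-likelihood test and 0.00917 with DESeq2.

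SERPINB2 (ENSG00000197632) encodes plasminogen activator inhibitor-2, an inhibitor of urokinase that remains largely inside the cell. It was the least abundant of the 6, with 66.2 and 89.9 normalized counts in siCt 1 and siCt 2 and 74.8 and 97.3 in siAxl 1 and siAxl 2. The groups overlapped, with siCt 1 and siAxl 1 low and siCt 2 and siAxl 2 high. The means were 78.0 ± 16.8 (SD, n = 2) and 86.0 ± 15.9 (SD, n = 2). The log2 difference of 0.14 (standard error 0.220, limma adjusted p = 0.696) went below 0 without siCt 1 (-0.075) and without siAxl 2 (-0.044). SERPINB2 had 69 to 99 reads per library. The interval of its fold, 0.771 to 1.58, includes no difference, a fall, and a rise larger than the one seen.

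The promoters of the 6 genes were also searched for short words, as a description with no test. RefSeq windows in build GRCh38.p14 were matched for 5 of the 6 genes, PLAT not among them. The 250 bases before the annotated start of PLAUR, SERPINB2, SERPINB8 and SERPINE2 are given 5′ to 3′ on the strand of the gene, to show which hold an AP-1 word and which do not. PLAUR lies on the minus strand of chromosome 19 (chr19:43670170-43670419). SERPINB2 (chr18:63887455-63887704) and SERPINB8 (chr18:63969831-63970080) lie on the plus strand of chromosome 18. SERPINE2 lies on the minus strand of chromosome 2 (chr2:224031479-224031728). Of the 2 windows of SERPINE2 this is the downstream one on that strand, and the upstream window is not printed. Capitals mark TGANTCA, the AP-1 word, and CCGGAAG, an ETS word, found on either strand.
PLAUR: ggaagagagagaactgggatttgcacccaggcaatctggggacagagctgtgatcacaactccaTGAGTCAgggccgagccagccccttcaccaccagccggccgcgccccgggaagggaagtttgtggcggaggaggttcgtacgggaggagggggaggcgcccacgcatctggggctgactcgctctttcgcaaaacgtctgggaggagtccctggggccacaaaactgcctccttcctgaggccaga
SERPINB2: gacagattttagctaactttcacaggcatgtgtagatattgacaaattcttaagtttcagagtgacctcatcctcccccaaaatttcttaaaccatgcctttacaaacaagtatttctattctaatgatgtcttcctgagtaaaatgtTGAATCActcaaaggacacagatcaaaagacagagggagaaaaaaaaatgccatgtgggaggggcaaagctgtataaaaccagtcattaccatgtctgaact
SERPINB8: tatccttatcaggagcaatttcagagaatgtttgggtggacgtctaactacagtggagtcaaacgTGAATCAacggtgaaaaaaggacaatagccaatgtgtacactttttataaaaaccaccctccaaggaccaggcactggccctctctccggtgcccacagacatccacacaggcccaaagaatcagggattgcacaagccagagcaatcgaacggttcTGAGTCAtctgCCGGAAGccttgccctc
SERPINE2: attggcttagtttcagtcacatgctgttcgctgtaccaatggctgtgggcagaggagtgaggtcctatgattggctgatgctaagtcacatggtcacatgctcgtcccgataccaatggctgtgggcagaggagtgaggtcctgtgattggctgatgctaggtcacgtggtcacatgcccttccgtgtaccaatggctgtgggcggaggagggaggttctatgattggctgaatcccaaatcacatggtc

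TGANTCA starts at -186 in PLAUR, at -102 in SERPINB2 and at -185 and -28 in SERPINB8, counted back from the annotated start. Among all 35116 RefSeq windows of 300 bases, which include 50 bases after the start, 7.71% hold this word. Neither window of SERPINE2, the serpin with the largest difference, nor either of PLAU held it. CCGGAAG was found in SERPINB8 alone, at -17, and in 10.3% of all windows. TATAAA starts at -30 in SERPINB2 and, as a pair of overlapping matches on both strands, at -142 and -140 in SERPINB8, against 11.5% of all windows. GGGCGG was found in 1 of the 2 windows of PLAU and in both of SERPINE2, and in 45.0% of all windows. Among genes with TGANTCA, SERPINB8 rose and PLAUR and SERPINB2 did not pass the test. Whether any of these words bears on the differences was not tested.

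Levels of different genes were compared as normalized counts per kb of exon, with exon lengths merged over the transcripts of each gene in GENCODE release 29. In siCt the mean level was 5883 per kb for PLAU, 3014 for PLAT, 1034 for PLAUR, 204 for SERPINB8, 105 for SERPINE2 and 28.4 for SERPINB2. The order was the same in all 4 libraries. Of neighbours in this order, SERPINB8 and SERPINE2 overlapped across groups, since SERPINB8 in siCt 2 (186 per kb) was below SERPINE2 in siAxl 1 (195 per kb). The other neighbours did not overlap between any 2 libraries. On this scale PLAU was above 99.2% and PLAT above 98.0% of protein-coding genes, and SERPINE2 above 57.9%. Merged exon length overstates the length of the transcript where a gene has long rare exons, so the levels per kb are approximate.

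**Figure D2:**
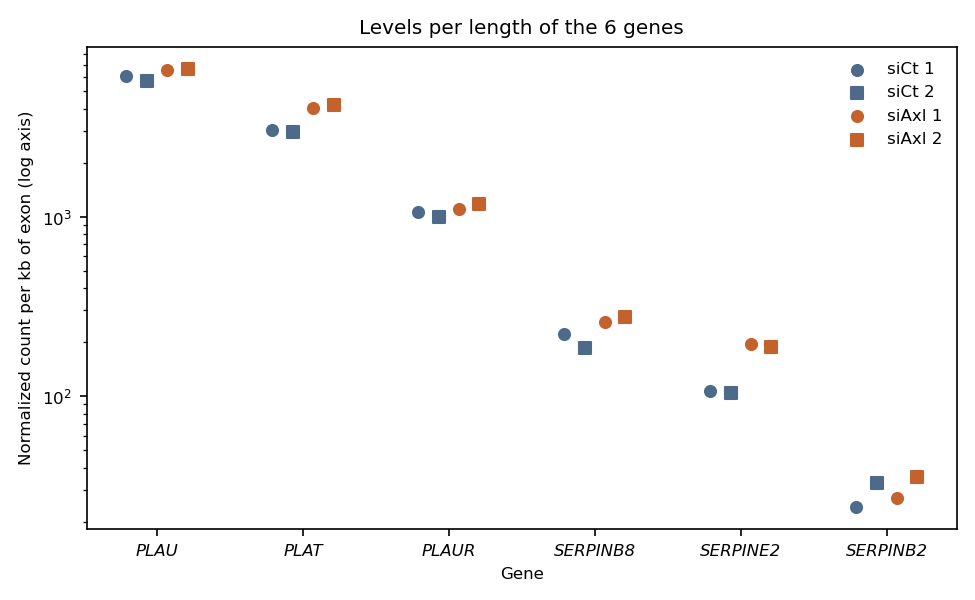
Normalized counts per kb of merged exon (log axis) of the 6 genes, ordered by their siCt mean, with 1 point per library. PLAU is highest and SERPINB2 lowest in all 4 libraries, and SERPINE2 in siAxl reaches the level of SERPINB8 in siCt 2.

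Ratios of normalized counts within a library do not depend on the size factor, and show how the genes moved against each other. The ratio of PLAU to PLAT was 0.886 and 0.854 in siCt 1 and siCt 2 and 0.724 and 0.710 in siAxl 1 and siAxl 2. That of PLAU to SERPINE2 was 18.9 and 18.2 in siCt, and 11.2 and 11.7 in siAxl. In both, the siAxl libraries lay below the siCt libraries without overlap, with log2 differences of -0.28 and -0.70. PLAU to PLAUR, activator to receptor, was at 3.76 and 3.77 in siCt, and 3.93 and 3.72 in siAxl, with overlapping groups. The ratio of PLAU to SERPINB2 was 270 and 187 in siCt and 259 and 202 in siAxl, again overlapping. With 2 libraries a group the exact two-sided permutation test cannot go below p = 0.333, which the first 2 of these 4 ratios reached (0.667 after Benjamini-Hochberg adjustment over the 4), and the other 2 had p = 1.

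Part of the SERPINB family lies in a cluster of 10 genes on chromosome 18, which RefSeq orders as SERPINB5, SERPINB12, SERPINB13, SERPINB4, SERPINB3, SERPINB11, SERPINB7, SERPINB2, SERPINB10 and SERPINB8. SERPINB8, at the end of the cluster, was the only gene of the 10 above 100 normalized counts in any library. SERPINB2 and its neighbour SERPINB7, at 37.9 to 64.9, were the next, and the other 7 were at most 12.8. SERPINB10, between SERPINB2 and SERPINB8, had 0 reads in all 4 libraries, and a count of 0 allows up to 3 reads per library.

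Reads of overlapping genes can be split or dropped in counting, and the strand setting is not given in the sources used here. In GENCODE release 29, SERPINB8 shares 370 exon bases with HMSD on the same strand, and HMSD had 15.1% as many reads. HMSD itself was at 195 to 225 normalized counts in the 4 libraries, with overlapping groups, and it did not pass the test (log2 difference 0.051, limma adjusted p = 0.818). PLAU shares 916 exon bases with C10orf55 on the opposite strand, whose reads were 0.393% of those of PLAU. SERPINB2 shares 547 exon bases with SERPINB10, which had no reads. The split of reads between SERPINB8 and HMSD is uncertain, and its part in the SERPINB8 result was not tested.

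Around the 6 genes, 34 further genes of plasminogen activation were counted by role, and 28 of them passed the filter on low counts. In siAxl 11 rose, 1 fell and 16 did not pass the test, with a median log2 difference of 0.25 over the 28. Over all genes tested 10.8% were called higher and 7.91% lower, and the median was -0.0022. Both siAxl libraries were above both siCt libraries in 22 of the 28, beside 30.6% of all genes tested. They were below both siCt libraries in 2 of the 28, beside 4903 of the 16064 genes tested. This list was also chosen with earlier results of these data known, so the counts are a description only. When 1 library at a time was left out, 6 of the 12 calls were kept each time (VLDLR, MRC2, CTSL, ITGB5, ITGA5 and MET), and 6 of the 16 uncalled genes passed without at least 1 library.

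Neither of 2 serpins counted as further inhibitors of the activators was called by limma or edgeR, and DESeq2 gave an adjusted p for SERPINI1 alone and did not call it. SERPINI1, neuroserpin, an inhibitor of tPA, had an unadjusted limma p under 0.05 and was at 0.44 (limma adjusted p = 0.0503) with both siAxl libraries above siCt, and passed without siCt 1 (0.51, adjusted p = 0.018), with 0.34 to 0.54 over all libraries left out (adjusted p up to 0.261). SERPINA5, the protein C inhibitor, had at most 11.9 normalized counts and a log2 difference of -0.26 (limma adjusted p = 0.666).

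Plasminogen itself (PLG) had at most 3.88 normalized counts and was not tested, nor were A2M, at most 5.42, and CPB2, at most 1.08. TFPI2, an inhibitor of plasmin secreted into the matrix, was at 0.19 (limma adjusted p = 0.425) and SERPINF2, the plasma inhibitor of plasmin, at 0.18 (limma adjusted p = 0.652), with overlapping groups in both. TFPI2 passed without siCt 2 (0.36, adjusted p = 0.00581) and was at 0.016 without siCt 1 and -0.0085 without siAxl 2.

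Of 5 surface proteins that bind plasminogen, 1 rose and 1 fell, beside 10.8% and 7.91% of all genes tested. S100A10, which forms a heterotetramer with annexin A2, rose by a log2 difference of 0.28 (limma adjusted p = 0.0211). KRT8, a keratin that is also found at the cell surface, fell by 0.31 on the log2 scale (limma adjusted p = 0.0232). S100A10 lost its call without siCt 2 (adjusted p = 0.0891), siAxl 1 (0.110) or siAxl 2 (0.0573), and so did KRT8 (0.0904, 0.10 and 0.0549). ANXA2, the partner of S100A10, was at 0.052 (limma adjusted p = 0.575), ENO1 at 0.16 (limma adjusted p = 0.162) and PLGRKT at -0.16 (limma adjusted p = 0.244).

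The 7 receptors and chaperones of endocytic clearance, which take up activators in complex with serpins or bind urokinase and its receptor, had both siAxl libraries above both siCt libraries in every case, and 3 were called higher. The shares over all genes tested were 30.6% and 10.8%. MRC2, which encodes uPARAP or Endo180, a collagen receptor that associates with the urokinase receptor, had 1274 and 1268 normalized counts in siCt 1 and siCt 2 and 2523 and 2342 in siAxl 1 and siAxl 2. It rose by a log2 difference of 0.93 (limma adjusted p = 0.00113). VLDLR, the very low density lipoprotein receptor, rose by 0.55 (limma adjusted p = 0.00329). LRP2, megalin, was called at 1.85 (limma adjusted p = 0.0307) on 4 and 2 reads in siCt 1 and siCt 2 and 15 and 12 reads in siAxl 1 and siAxl 2. The size of this difference depended on the pseudocount, at 0.95 with a pseudocount of 8 (adjusted p = 0.0370). Its call was lost without siCt 2 (adjusted p = 0.0573), siAxl 1 (0.144) or siAxl 2 (0.0818).

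LRP1, the main receptor for such complexes in many cells, was at 0.42 (limma adjusted p = 0.0651), with 4743 and 6276 normalized counts in siCt 1 and siCt 2 and 6801 and 7888 in siAxl 1 and siAxl 2. It passed without siCt 2 (0.63, adjusted p = 1.45e-07) and without siAxl 1 (0.53, adjusted p = 0.0406), and was at 0.22 (adjusted p = 0.0599) without siCt 1 and 0.32 (adjusted p = 0.176) without siAxl 2. IGF2R, which also binds plasminogen and the urokinase receptor, was at 0.23 (limma adjusted p = 0.143) and passed without siCt 2 (0.36, adjusted p = 0.00503), but was at 0.10 (adjusted p = 0.508) without siCt 1 and 0.15 (adjusted p = 0.427) without siAxl 2. LRPAP1, the chaperone of these receptors, was at 0.23 (limma adjusted p = 0.0545) and was called with edgeR's quasi-likelihood test with TMM (adjusted p = 0.0371), DESeq2 (0.0431) and limma with TMM (0.0371). Leaving out 1 library gave it 0.15 without siAxl 2, 0.21 without siCt 1, 0.24 without siCt 2 and 0.30 without siAxl 1. SORL1, a sorting receptor, was at 0.21 (limma adjusted p = 0.157) and passed without siCt 2 (0.31, adjusted p = 0.0157), but was at 0.11 (adjusted p = 0.433) without siCt 1 and 0.12 (adjusted p = 0.523) without siAxl 2.

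Among proteases that can cut pro-urokinase to its active form, the cathepsins CTSL and CTSB rose, with log2 differences of 0.36 (limma adjusted p = 0.00916) and 0.32 (limma adjusted p = 0.0325). CTSB lost its call without siCt 1 (adjusted p = 0.106) or siAxl 2 (0.126). ST14, matriptase, was at 0.081 (limma adjusted p = 0.700), F12 at 0.11 (limma adjusted p = 0.660) and KLKB1, plasma prekallikrein, at -0.15 (limma adjusted p = 0.818, 0.24 without siAxl 2). HPN was at most 4.33 normalized counts and was not tested.

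Of the integrins that associate with the urokinase receptor, 4 of 6 rose, beside 10.8% of all genes tested. ITGB5 rose by a log2 difference of 0.49 (limma adjusted p = 0.00273), ITGA5 by 0.47 (limma adjusted p = 0.00573), ITGAV by 0.33 (limma adjusted p = 0.0162) and ITGA3 by 0.27 (limma adjusted p = 0.0220). ITGAV lost its call without siAxl 2 (adjusted p = 0.0668), and ITGA3 with any 1 library left out (0.0854 to 0.117). ITGB1 was at 0.14 (limma adjusted p = 0.247) and ITGB3 at 0.30 (limma adjusted p = 0.218). Vitronectin (VTN), the matrix ligand of the urokinase receptor, was at most 2.91 normalized counts. MET, the receptor of the urokinase substrate HGF, rose by 0.49 (limma adjusted p = 0.00611), whereas HGF had 0 reads in every library.

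**Figure D3:**
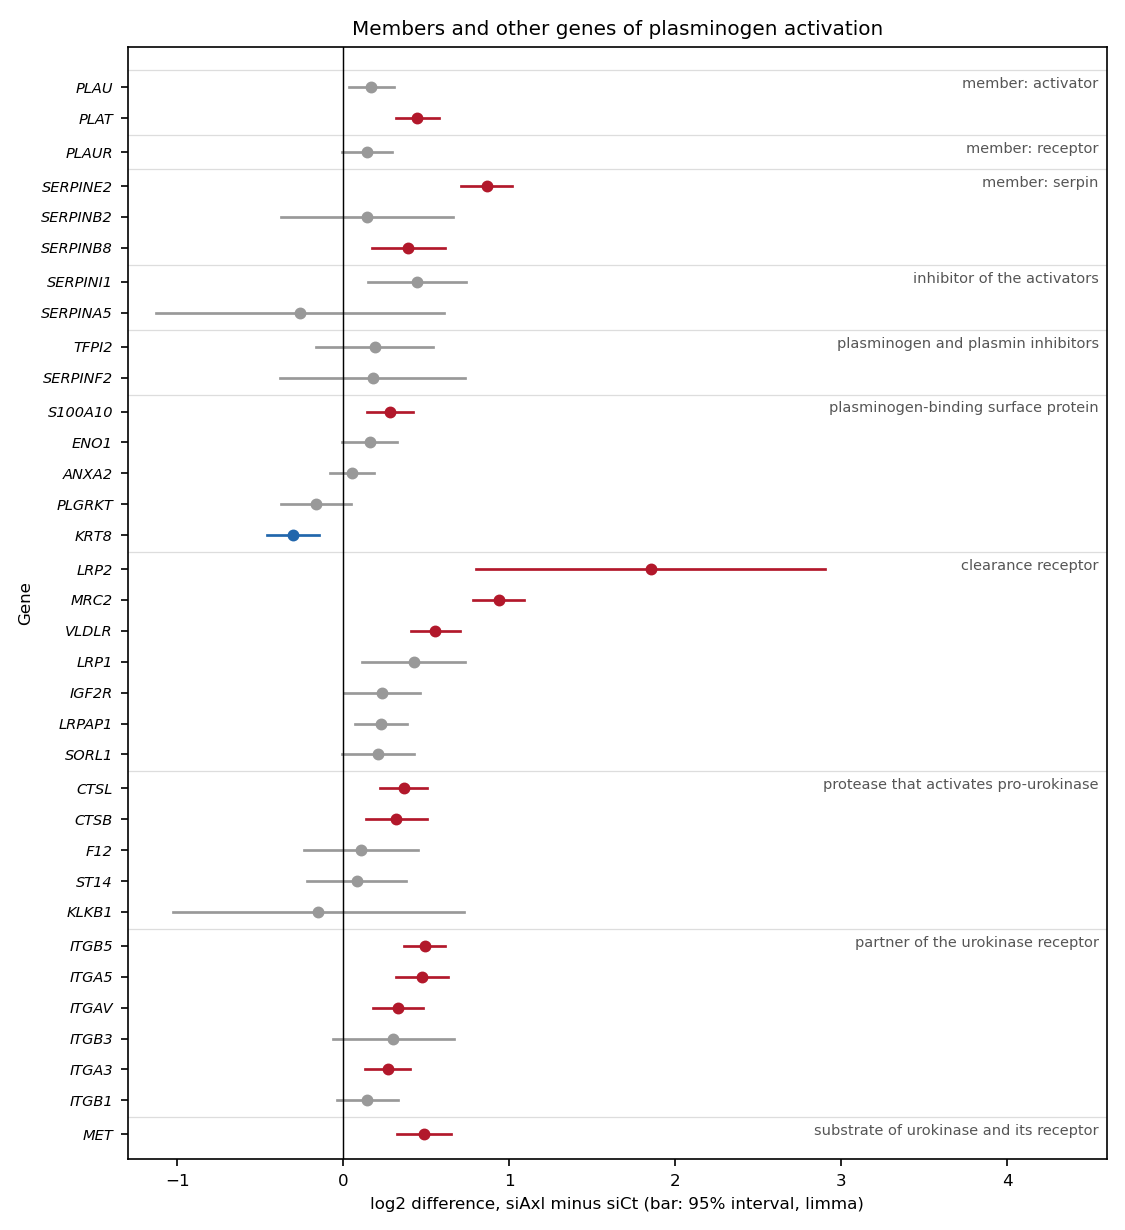
Log2 differences, siAxl minus siCt, with their 95% intervals from limma, of the 6 genes and of the 28 tested genes counted around them, grouped by role. Called genes are in red where higher and blue where lower in siAxl, and genes that did not pass the test are in grey. Of the 28, KRT8 is the only gene called lower, at -0.31, and LRP2 has the widest interval.

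Among other rows with a SERPIN symbol, 34 were counted, pseudogenes and serpins described above included, and 11 of them were tested. Of the 11, 4 rose and 0 fell beside 10.8% and 7.91% of all genes tested. None fell at an unadjusted limma p under 0.05, with edgeR, or with DESeq2 in the 7 that it gave an adjusted p. The 11 had a median log2 difference of 0.24, and 11 of the 34 had 0 reads in every library. SERPINH1 (HSP47), a collagen chaperone that does not inhibit proteases, rose by 0.61 (limma adjusted p = 0.00218). SERPIND1, heparin cofactor II, an inhibitor of thrombin, rose by 0.87 (limma adjusted p = 0.00353) from 388 and 332 normalized counts in siCt 1 and siCt 2 to 647 and 666 in siAxl 1 and siAxl 2. SERPINB6, an intracellular inhibitor of trypsin-like proteases and cathepsin G, rose by 0.24 (limma adjusted p = 0.0297). SERPINB9, the inhibitor of granzyme B, rose by 0.20 (limma adjusted p = 0.0410).

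The calls of SERPINH1 and SERPIND1 were kept with each library left out. SERPINB6 lost its call without siCt 2 (adjusted p = 0.113), siAxl 1 (0.0802) or siAxl 2 (0.157), and SERPINB9 with any 1 library left out (0.0970 to 0.205) and when scaled by library size alone (0.0518). SERPINB1, an inhibitor of neutrophil elastase, was abundant at 7450 to 8030 normalized counts, and its log2 difference of -0.0064 (limma adjusted p = 0.952) changed sign with TMM scaling (0.0027).

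Genes with a pattern like that of SERPINE2 or PLAT, which had the largest differences of the 6, were sought among 12087 other genes with a mean of at least 100 normalized counts. Likeness was the Euclidean distance over the 4 libraries between log2 values less their siCt mean. Nearest to SERPINE2 were IGFBP3, a carrier of insulin-like growth factors, at 0.034, STC1, the secreted glycoprotein stanniocalcin-1, at 0.046, and NES, the intermediate filament nestin, at 0.056. IGFBP3 had 565 and 554 normalized counts in siCt 1 and siCt 2 and 1016 and 988 in siAxl 1 and siAxl 2. Within a distance of 0.2 of SERPINE2 lay 77 genes. Nearest to PLAT were GAS6, which encodes a ligand of AXL, at 0.024, ARHGAP22, a GTPase-activating protein, at 0.027, and TXNRD3, a thioredoxin reductase, at 0.029. GAS6 had 12547 and 12306 normalized counts in siCt 1 and siCt 2 and 16918 and 17166 in siAxl 1 and siAxl 2. As 731 genes lay within 0.2 of PLAT, and as the distance rests on 4 libraries, the order of the nearest genes is a description only.

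**Figure D4:**
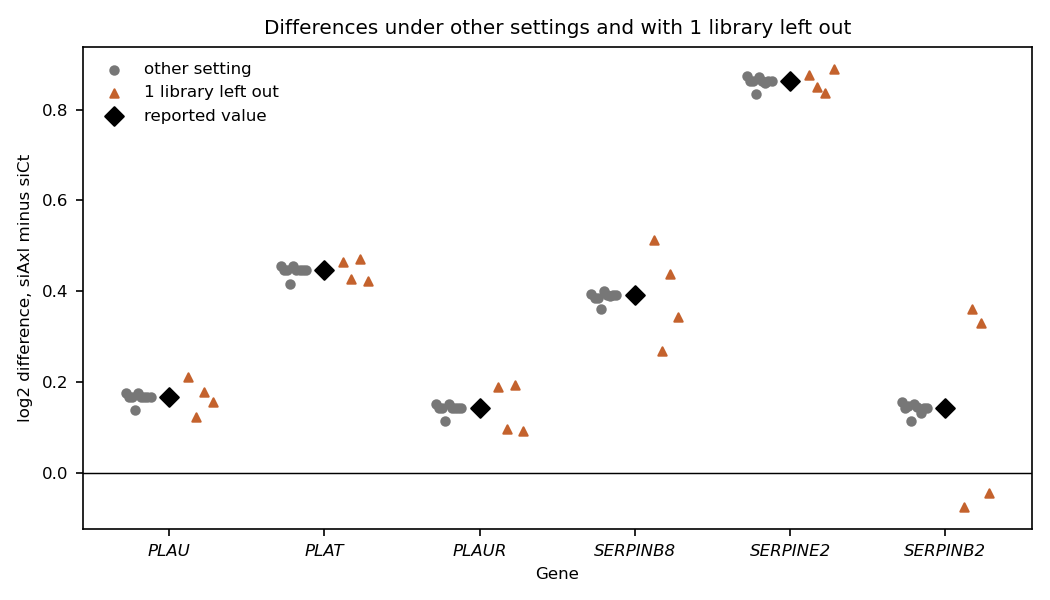
Log2 differences, siAxl minus siCt, of the 6 genes as reported (diamonds), under other tests, scalings, pseudocounts and filters (circles) and with 1 library left out (triangles). SERPINE2 is highest throughout, at 0.83 to 0.89, and of these 6 genes SERPINB2 alone goes below 0, to -0.075.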

How the data were processed

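RNA was sequenced by the authors on an Illumina HiSeq instrument from MDA-MB-231 cells transfected with siCt or siAxl, 2 libraries each. The submitters' processing notes name CASAVA 1.8, TopHat2 2.0.10, HTSeq 0.5.3, DESeq2 1.4.5 and the build GRCh37. The strand setting and the annotation are not given in the sources used here. The deposited signal is a normalized count per gene, which the authors made by dividing reads by a size factor per library from DESeq2. In each library 100% of the values were whole multiples of 1 read, within 0.1 read, so the reads were recovered. The sums were 44281982 and 39574387 reads for siCt 1 and siCt 2, and 44585773 and 44559547 reads for siAxl 1 and siAxl 2. The mean chi-square per gene between libraries of a group was 21.6 in siCt and 19.6 in siAxl, so no library was a copy of another. A count of 0 allows up to 3 reads, for counting error only. The deposited columns of fold changes, standard errors, test statistics and p-values were not used, and 0 columns of single samples were left out.

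Samples were grouped by title. In R 4.3.3, limma 3.58.1 (lmFit, then eBayes with trend) was fitted on log2(normalized count + 1) with no covariates, over the 16064 of 63677 genes that passed edgeR's filterByExpr on the recovered reads. Of all genes, 27108 had a read. Alternatives were edgeR 4.0.16 (quasi-likelihood) and DESeq2 1.42.0 on recovered reads, other scalings, pseudocounts of 0.5 and 8, no filter, a replicate block, a threshold of 0.01 and each library left out, when the lone library is assumed to vary like the other group. Intervals are 95%, for single genes. The fits were also run on simulated counts, with a pass bound that was lowered after the DESeq2 outcome was seen. No result here rests on that run.

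The 6 genes, the lists and the motifs were chosen with earlier results of these data known. Named are the 6 genes, AXL, called genes of the lists, up to 3 uncalled genes per role by mean level, and the 3 genes nearest to each of the 2 genes of the 6 with the largest differences. SORL1, SERPINB1, HMSD, C10orf55, the markers, the untested genes and the other genes of the SERPINB cluster were named beyond that rule, after their values were seen. Exon lengths and overlaps are from GENCODE release 29, matched by Ensembl identifier (82.5% of the table). Its build differs from that of the table, so no gene coordinates from it are given. Promoter windows are from RefSeq, and theirs are the only coordinates printed, in build GRCh38.p14. A comparison of protein sequences was planned and not analysed here. Some genes of the lists are not reported here, and every count of a list is taken without them.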

Additional observations from a re-analysis of the deposited data

How the results depend on the processing

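PLAT, SERPINE2 and AXL kept their direction and their call under every alternative tried, the threshold of 0.01 included. With scaling by TMM or by library size alone, with edgeR, with DESeq2 and with pseudocounts of 0.5 and 8, the count of genes of the 6 called higher stayed at 3. SERPINB8 lost its call, at an unchanged difference of 0.39, when every gene with a read was tested and at the threshold of 0.01. With 1 library left out the difference of SERPINB8 ranged from 0.27 to 0.51. That of SERPINB2 ranged from -0.075 to 0.36, and was below 0 without siCt 1 (-0.075) and also without siAxl 2 (-0.044).

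Among the 34 genes counted around them, 6 were called higher and 0 lower when every gene with a read was tested, and again at the threshold of 0.01. With 1 library left out 6 to 13 were higher, fewest without siAxl 2, and 0 to 1 lower. Of the other serpins, 2 were called higher with no filter and at 0.01, and 2 to 4 with 1 library left out. Signs turned without siCt 1 for SERPINF2 (range -0.097 to 0.45), and without siAxl 2 for TFPI2 (-0.0085 to 0.38) and KLKB1 (-0.54 to 0.24). SERPINB1 turned with edgeR's test with TMM (0.00197), with TMM in limma (0.0027), and without siCt 2 or siAxl 1 (range -0.061 to 0.048). The cause was not tested.

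Replicate numbers are shared by the groups, but no label says that they mark a common culture or batch. The correlation across genes of the difference between replicates was 0.271 over the 2 groups. Whether the numbers mark a shared source was not tested, and the reported fit treats the samples as unpaired. With the replicate block, 5 of the 6 genes were called higher, PLAU (0.17, adjusted p = 4.02e-05) and PLAUR (0.14, adjusted p = 0.00334) among them. Around them 19 genes were then higher and 1 lower, and of the other serpins 6 were higher and 0 lower. With the block 3737 genes of all were higher and 3573 lower.

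Of all genes tested 1735 were called higher and 1271 lower, or 57.7% higher. With scaling by library size alone it was 1536 and 1745, or 46.8% higher. With every gene with a read tested, 757 were higher and 340 lower. At the threshold of 0.01, 613 were higher and 246 lower. Precision is limited by 2 libraries per group, and genes at few reads, such as LRP2, SERPINA5, KLKB1, SERPINF2 and SERPINB2, had the larger standard errors.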
